A study of Danio rerio with 18 samples.

Results

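The data compare 256-cell zebrafish (Danio rerio) embryos that overexpressed CDK9 with untreated embryos of the same age, gene by gene. CDK9_256c embryos received the modified nucleotide s4UTP together with CDK9 mRNA, and untreated_256c embryos received s4UTP alone, with 3 biological replicates in each group. The genes described are the 16996 that carry a p-value for this contrast, of 17135 in the authors' comparison tables and 32520 in their count table. All embryos were wild type, were freed of the chorion with Pronase and were kept at 28 degrees until the 256-cell stage. The whole series holds 18 libraries, from 3 conditions at the 256-cell and 1024-cell stages. RNA that had taken up s4UTP was captured through biotin and its s4U bases were chemically converted (enriched SLAM-seq), so the libraries are enriched for RNA made after the injection. Stranded libraries were prepared without polyA selection. No group received an unrelated mRNA, so an effect of CDK9 and an effect of injected mRNA as such cannot be told apart. Each library came from whole embryos, and a change in the number of cells of a type cannot be told apart from a change in RNA per cell.

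CDK9 is the kinase of the positive transcription elongation factor P-TEFb, which it forms with a T-type cyclin. RNA polymerase II often stops shortly after the start of a gene, held by the factors NELF and DSIF, and P-TEFb releases it by phosphorylating these factors and the tail of the polymerase. A part of the cell's P-TEFb is kept inactive by the 7SK RNA with the proteins Hexim and Larp7, and bromodomain proteins can recruit the active form to chromatin. The early zebrafish embryo lives on maternal RNA, and its own genome is switched on in the blastula, beginning with a few genes such as the mir-430 cluster. The series title names transcription bodies, the nuclear spots where early transcription concentrates, and a sequestering of CDK9 by them. The contrast asks how new RNA responds to additional CDK9 at a stage when few genes are active.

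Of the 16996 genes, 9124 carried an adjusted p and are called tested here, and at a threshold of 0.05 on it 460 (5.04%) rose and 34 (0.373%) fell. The rises were thus 93.1% of all calls. Signs leaned upward below the threshold as well, with 56.4% of the 8630 uncalled genes above 0, and the median log2 fold change of all tested genes was 0.07. With the test statistics centred on their median, 302 genes rose and 65 fell, so that rises were 82.3% of the calls. The 7872 genes without an adjusted p had mean normalized counts of at most 8.45, and 75 of them were higher and 62 lower at an unadjusted p under 0.05. All values printed for a gene are the authors' shrunken log2 fold changes of CDK9 over untreated with their standard errors (SE), from 3 libraries against 3, and Benjamini-Hochberg adjusted p-values of their DESeq2 comparison. Values of single libraries were not used here because the count columns bear names that match no sample, so neither the depth of each library nor an overlap of the groups can be given.

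Among the risen genes the median log2 fold change was 3.61, with quartiles at 1.99 and 5.85. The fallen genes moved less, with a median of -1.29 and 7 of 34 under -2. In 13 risen genes the fitted values lay between 16.9 and 32.6, and with every read of the gene placed in the CDK9 group, fewer than 1 read would be left for the 3 untreated libraries. Such a fold carries no size, and these 13 are described by their p-values alone, which come from the same fits. The other 447 rises had a median of 3.45 and reached 10.1, and 195 of them exceeded 4. Risen genes made up 19.6% of the summed mean normalized count of nuclear genes, fallen genes 0.422%. The authors give this mean with the same values in each comparison, so it is pooled beyond the libraries of this contrast. Mitochondrially encoded genes, which are transcribed by a polymerase of their own, held 96.8% of the summed mean of all genes. None of their 37 tested members was called by DESeq2, and 3 were lower and 0 higher at an unadjusted p under 0.05. Their log2 fold changes ran from -0.74 to 0.07 with a median of -0.15. Only 8.11% of them lay above 0, beside 58.4% of all tested genes.

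**Figure D1:**
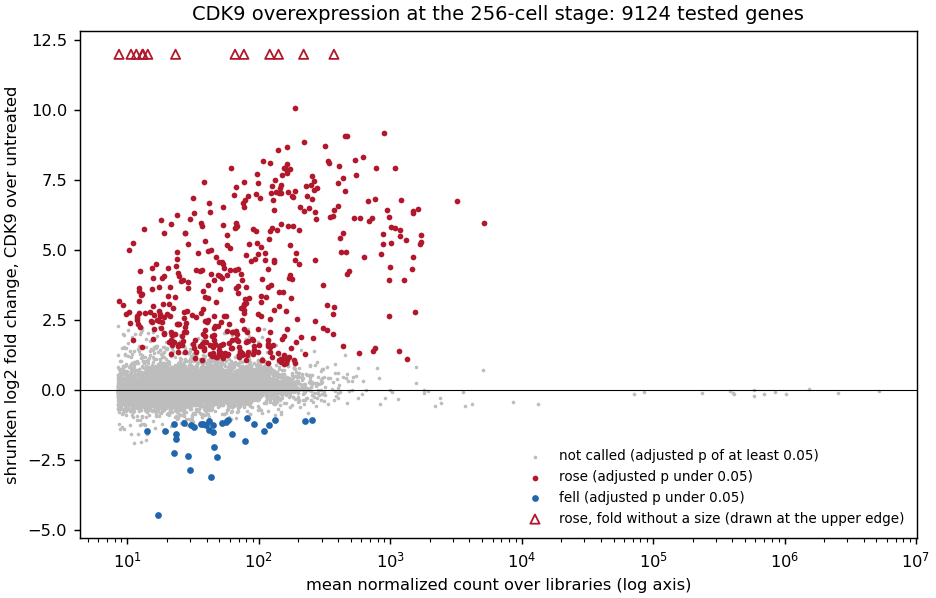
Shrunken log2 fold change of CDK9 over untreated embryos at 256 cells (vertical axis) against the mean normalized count over libraries (horizontal log axis), one point for each of the 9124 tested genes. The 460 risen genes (red) reach 10.1 and include 13 whose fold has no size (open triangles at the upper edge), while the 34 fallen genes (blue) lie between -4.46 and -0.98.

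The overexpressed gene itself had the smallest p of the contrast. cdk9 (ENSDARG00000044811, chromosome 21, 6136981 to 6150568 in GRCz11, plus strand, 8 exons) rose by 6.79 log2 units (SE 0.41, adjusted p = 7.08e-59) per the authors' deposited table. The sources used here do not separate reads of the injected mRNA from reads of the embryo's own gene. Of 37 tested pause release and elongation factors 3 rose, cdk9 among them, a share of 8.11% beside 5.04% of all tested genes. This share counts the overexpressed gene itself, so it is no independent result for the list. The median log2 fold change of the 37 was 0.12. Beside cdk9 these were brd2a, a bromodomain gene of the BET family, at 6.46 (SE 0.86, adjusted p = 1.9e-11), and pcf11, whose protein acts in RNA cleavage and transcription termination, at 1.99 (SE 1.07, adjusted p = 0.00717) per the authors' deposited table. The other parts of P-TEFb and of the 7SK complex that encode proteins did not pass. The authors' deposited table gives -0.25 (SE 0.49, adjusted p = 0.669) for the cyclin gene ccnt1, -0.46 (SE 0.48, adjusted p = 0.411) for hexim1 and 0.26 (SE 0.47, adjusted p = 0.66) for larp7.

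The 7SK RNA, in contrast, rose. Its gene rn7sk (chromosome 13, 825904 to 826225, minus strand, 1 exon of 322 bases) stood at 5.41 log2 units (SE 1.40, adjusted p = 0.00037) per the authors' deposited table. The values of ccnt1, hexim1, larp7 and rn7sk were singled out after they had been seen. rn7sk is transcribed by RNA polymerase III, and its RNA carries no polyA tail. At the 1024-cell stage the authors' deposited table gives rn7sk 3.81 (SE 0.98, adjusted p = 0.000708). Of 34 tested genes for RNA polymerase II and the general transcription factors 1 rose, a share of 2.94% beside 5.04% of all tested genes. It was gtf2h2, which encodes a subunit of TFIIH, at 3.99 (SE 1.81, adjusted p = 0.00453) per the authors' deposited table. The median of that list was -0.03, and 3 members were higher and 1 lower at an unadjusted p under 0.05.

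Among gene symbols, the smallest adjusted p after that of cdk9 belonged to akap12b (chromosome 20; adjusted p = 5.59e-16 per the authors' deposited table), whose product is a scaffold of protein kinase A known in gastrulation movements. It is among the folds without a size, as are the zinc finger gene znf1092 (adjusted p = 1.41e-12), the cell cycle repressor gene e2f7 (adjusted p = 1.19e-10) and the heparan sulfate enzyme gene hs3st3b1b (adjusted p = 2.12e-08), all from the authors' deposited table. Further such genes are sb:cb81, dhrs13b.1, fgfr4, spns3, CR788281.2, BX842669.1, BX927212.1, CU182823.1 and a gene without a symbol in the files that the reference names PCMTD2. Among rises with a size, the smallest adjusted p below those of cdk9 and brd2a belonged to irx7, an Iroquois homeobox gene (chromosome 23, 37815645 to 37816969), at 7.93 (SE 1.18, adjusted p = 2.12e-09) per the authors' deposited table. Among gene symbols with a size, marcksl1b, a relative of the actin-regulating protein Marcks, followed at 7.95 (SE 1.27, adjusted p = 2.43e-08) per the authors' deposited table.

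The share of genes that rose differed with the number of exons. Exons were counted as merged exon blocks of the authors' annotation. Of 325 tested genes with 1 exon 104 rose (32%), against 9.84% of 366 genes with 2 exons, 7.62% of 1653 with 3 to 5, 2.8% of 2460 with 6 to 10, 2.82% of 2872 with 11 to 20 and 3.04% of 1448 with more than 20. The 104 single-exon rises comprised 36 mir-430 copies, 36 genes with clone or accession names and 32 with gene symbols. The 37 mitochondrial genes, all of 1 exon, are in the denominator. Among nuclear genes without mir-430 copies 68 of 242 single-exon genes rose (28.1%), and without genes named hist as well 53 of 198 (26.8%). Single-exon rises with a developmental role were the forkhead genes foxd5 and foxb1a, the SoxB gene sox3, the POU gene pou3f1, the ventral repressor gene vox, the Wnt receptor genes fzd8a and fzd8b, the apelin receptor gene aplnrb and the AP-1 genes jun and junba. In the authors' deposited table foxd5 (chromosome 8, 30452945 to 30454096) stood at 8.88 (SE 1.65, adjusted p = 9.17e-07), the smallest adjusted p of these genes.

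Span gave a like order, from the first to the last base of a gene. Of 253 genes under 1 kb 34.4% rose, of 877 genes of 1 to 5 kb 11.6%, of 3733 of 5 to 20 kb 4.37%, of 2477 of 20 to 50 kb 2.46%, of 1104 of 50 to 100 kb 2.26%, and of 680 of 100 kb or more 3.24%. Exon number and span go together, but the order by span also held among genes of 2 or more exons, where 10.7% of 811 genes under 5 kb rose against 3.38% of 7308 genes of 5 to 100 kb. The size of the rises had no steady order by span. The median log2 fold change of the risen genes was 4.33 under 1 kb, 5.54 at 1 to 5 kb, 3.08 at 5 to 20 kb, 2.18 at 20 to 50 kb, 1.55 at 50 to 100 kb and 2.23 at 100 kb or more. By exon number it was 4.36 at 1 exon, 5.67 at 2, 4.75 at 3 to 5, 2.71 at 6 to 10, 2.18 at 11 to 20 and 1.53 above 20.

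Genes with more reads were called more often. Of 645 genes with a mean normalized count under 10 4 rose (0.62%), of 6089 with a mean of 10 to 50 2.71%, of 2132 with 50 to 200 9.19%, of 206 with 200 to 1000 35.4% and of 52 with 1000 or more 42.3%. This mean includes the CDK9 libraries themselves, as well as libraries outside this contrast. It is not corrected for gene length, so a rise raises it and long genes collect more reads. Shares by exon number within a class of mean, in nuclear genes without mir-430 copies, are therefore a description and no control for the mean. At a mean of 50 to 200 40.6% of 101 single-exon genes rose, 27.7% of 65 genes with 2 exons, 19.3% of 259 with 3 to 5, 4.3% of 465 with 6 to 10, 4.27% of 679 with 11 to 20 and 4.41% of 544 with more. At a mean of 10 to 50 the shares were 15.8% of 120 single-exon genes, 4.26% of 235 with 2 exons, 3.27% of 1163 with 3 to 5, and 1.84% to 2.28% of the classes above.

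**Figure D2:**
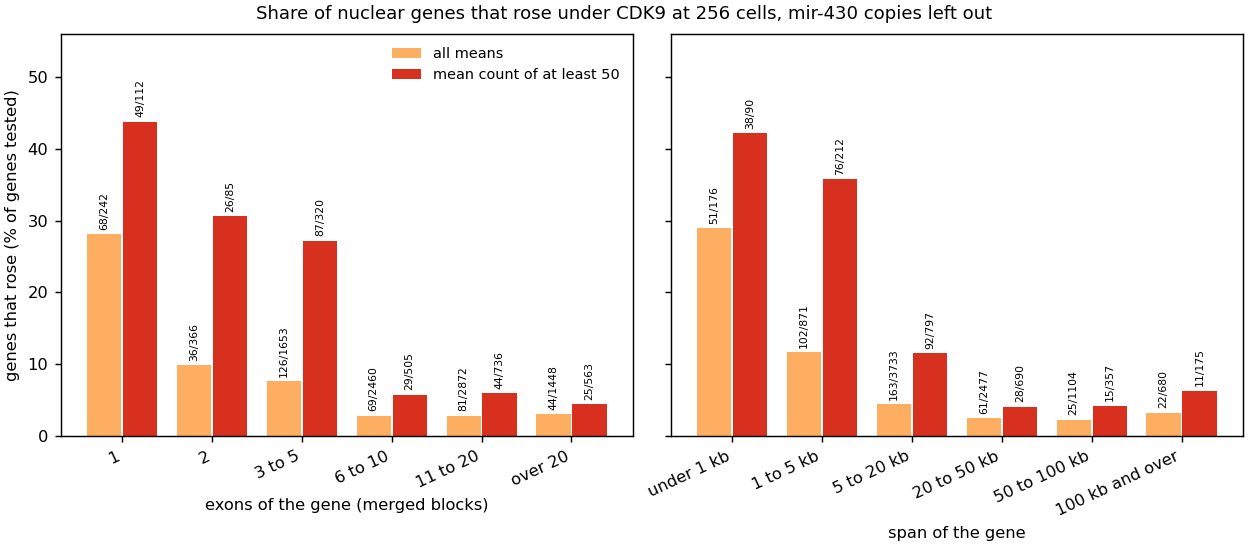
Share of tested nuclear genes that rose (percent, vertical axis) by number of exons (left) and by span of the gene (right), with mir-430 copies left out, for all genes (orange) and for genes with a mean normalized count of at least 50 (red); the fraction above each bar gives the risen and the tested genes. At a mean of at least 50 the share falls from 43.8% of 112 single-exon genes to 5.74% of 505 genes with 6 to 10 exons, and from 42.2% under 1 kb to 4.06% at 20 to 50 kb.

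Among the 21 nuclear genes with a mean of 1000 or more, mir-430 copies left out, 17 rose. A gene can reach this mean through its rise in the CDK9 libraries, so this share is no independent result. The 17 included cdk9, brd2a, irx7, the Krüppel-like factor gene klf17, the splicing-associated gene acin1b, pnrc2, vox, khdrbs1a and the helicase gene ddx5. The authors' deposited table gives klf17 (chromosome 2, 33326522 to 33328688), active in the outer layer of the embryo, 6.76 (SE 1.11, adjusted p = 1.3e-07). It gives acin1b (chromosome 7, 24069421 to 24097070) 5.25 (SE 0.99, adjusted p = 6.05e-06). The clone gene CR388231.2, which also rose, lies within acin1b on the same strand, and reads could be split between them. Another 6 of the 17, FO834825.1, FO834825.2, FO834825.3, FO704836.1, zgc:100951 and zgc:113886, lie on chromosome 17 near each other or overlapping. The 4 that did not rise were nanog, hmga1a, hnrnpa0l and AL935186.10, named after their values were seen. In the authors' deposited table nanog stood at 0.26 (SE 0.40, adjusted p = 0.638), hmga1a at -0.08 (SE 0.36, adjusted p = 0.9) and hnrnpa0l at 0.82 (SE 0.50, adjusted p = 0.12).

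Of the 680 genes that span 100 kb or more 22 rose (3.24%) and 0 fell, beside 5.04% and 0.373% of all tested genes. At an unadjusted p under 0.05, a looser threshold than that of the 22 rises, 16 of the 680 were lower. The protocadherin gene pcdh1b (chromosome 14, 286.6 kb, 6 exons) rose by 7.34 (SE 1.54, adjusted p = 3.17e-05) per the authors' deposited table. nbeaa, which encodes a neurobeachin of membrane traffic, spans 308.7 kb with 59 exons and stood at 3.95 (SE 1.46, adjusted p = 0.00174), and ccser1 at 1.39 (SE 0.51, adjusted p = 0.0041) per the authors' deposited table. In genes of more than 20 exons the smallest adjusted p belonged to dop1a (chromosome 16, 39 exons), at 5.21 (SE 1.15, adjusted p = 7.64e-05), then to gigyf1b, at 4.12 (SE 1.34, adjusted p = 0.00104), per the authors' deposited table. dop1a has a risen neighbour, pnrc2, 4453 bases away on the same strand.

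Risen genes often had a risen neighbour on the same strand. Of 164 risen genes whose nearest tested gene lay within 10 kb on the same strand, mir-430 copies left out, that neighbour rose for 43 (26.2%). For the 2680 uncalled genes with such a neighbour it rose for 114 (4.25%). On the opposite strand the neighbour rose for 9 of 83 risen genes (10.8%) and 73 of 2221 uncalled genes (3.29%). A pair of risen genes that are each other's nearest, such as vent and vox, enters these counts from both sides. Pairs on the same strand were vent and vox, dop1a and pnrc2, ddx5 and mgat3a, sesn1 and BX842669.1, and histone and histone-like genes on chromosomes 7 and 25. Most of the 43 involved histone records or genes with clone or accession names, such as CR388189.3 and CR388189.6, and few joined 2 genes with distinct symbols. On opposite strands, her5 and its neighbour her11 both rose, as did mrnip and sqstm1. In pairs that overlap on the same strand, such as zgc:113886 and FO834825.3, reads can be assigned to either gene, and BX842669.1 lies 452 bases from sesn1.

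Chromosome 4 stood apart from all others in the share of rises. Of its 459 tested genes 91 rose (19.8%), which is 19.8% of all risen genes. The other 24 chromosomes ranged from 1.93% on chromosome 1 to 6.78% on chromosome 25, and together 364 of their 8570 genes rose (4.25%). On chromosome 4, 147 genes were higher and 6 lower at an unadjusted p under 0.05. The excess lay on the long arm, taken as the part from 25 Mb onward, where 84 of 277 genes rose (30.3%). Before 25 Mb 7 of 182 rose (3.85%), among them e2f7, the antiproliferative gene btg1 and the planar cell polarity gene prickle1b.

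The mir-430 cluster accounted for a part of this. It lies at 28693371 to 28709534, and its microRNAs direct the clearance of maternal mRNAs. All 46 tested copies lie on the plus strand there, of 54 with a p-value, and 36 of them rose with a median log2 fold change of 5.80. The smallest adjusted p for each mature type belonged to a mir-430c copy (28707457 to 28707529) at 10.08 (SE 1.61, adjusted p = 2.55e-09), a mir-430a copy (28706690 to 28706771) at 9.09 (SE 1.58, adjusted p = 1.3e-07) and a mir-430b copy (28701218 to 28701298) at 7.57 (SE 1.26, adjusted p = 1.3e-07) per the authors' deposited table. The copies are nearly identical, so the share of reads given to each is uncertain. The median mean count was 190.2 in the 36 risen copies and 19.99 in the 10 others.

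Without the cluster 48 of the remaining 231 long-arm genes rose (20.8%). By exon number the shares were 33.3% of 9 single-exon genes, 17.9% of 28 with 2 exons, 21.1% of 133 with 3 to 5, 17.6% of 34 with 6 to 10 and 25% of 24 with 11 to 20, and 0 of 3 genes with more than 20 exons rose. Clone-named genes rose in 31 of 131 cases (23.7%) and gene symbols in 17 of 100 (17%). Genes with znf symbols, which encode zinc finger proteins, rose in 16 of 73 cases on the long arm (21.9%) and in 4 of 96 cases elsewhere (4.17%). With a size and the smallest adjusted p, znf1127 (59061652 to 59069694) stood at 8.22 (SE 1.98, adjusted p = 0.000112) per the authors' deposited table. Zinc finger genes of this arm resemble one another in sequence, and reads may be shared between them.

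**Figure D3:**
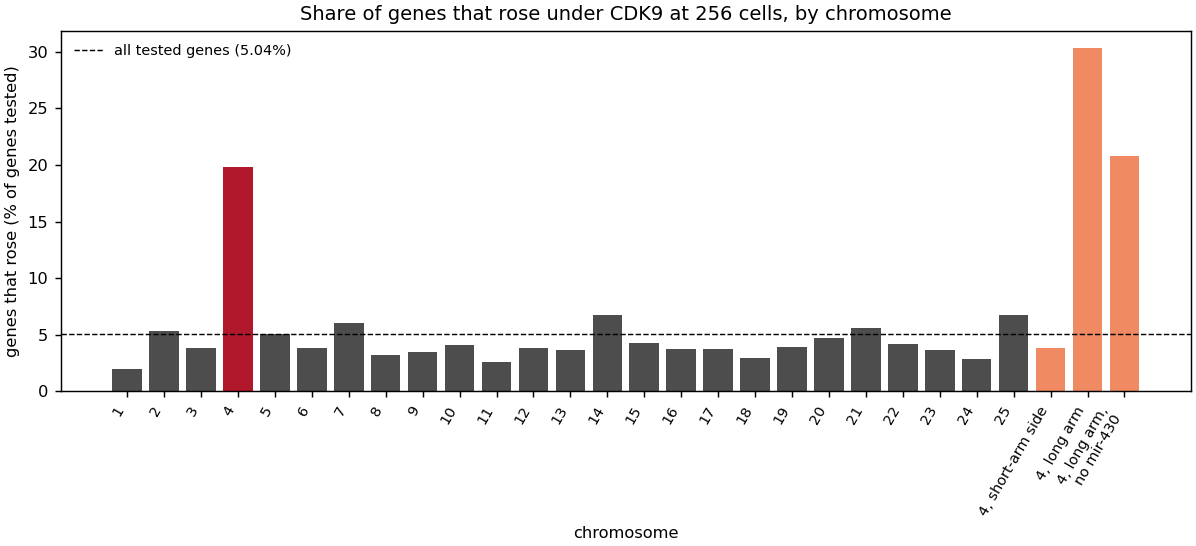
Share of tested genes that rose (percent, vertical axis) on each of the 25 chromosomes, with chromosome 4 in red, and for parts of chromosome 4 split at 25 Mb (light red bars at the right). Chromosome 4 reaches 19.8% and its long arm 30.3%, or 20.8% without mir-430 copies, against 5.04% of all tested genes (dashed line).

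Across 17 gene lists of early development, transcription and maternal RNA, 66 of 382 tested genes rose (17.3%) and 2 fell, read against 5.04% and 0.373% of all tested genes. The lists were chosen with earlier results of these data known, so a share above that of all genes is no independent result. At an unadjusted p under 0.05, 110 listed genes were higher and 9 lower. The largest share lay in genes of the enveloping layer and the yolk syncytial layer, the first tissues to differentiate at the surface and at the yolk. Of 13 tested members 7 rose, and the median of the 13 was 2.64. Beside klf17, the grainyhead gene grhl3 stood at 9.19 (SE 1.87, adjusted p = 4.19e-06) and gata2a at 7.94 (SE 1.99, adjusted p = 0.000177) per the authors' deposited table. grhl3 and gata3 act in surface epithelium, and krt8, a keratin, is a marker of it. gata3 rose by 6.58 (SE 1.60, adjusted p = 0.000219) and mxtx2, the inducer of the yolk syncytial programme, by 4.86 (SE 1.03, adjusted p = 3.87e-05) per the authors' deposited table.

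Of 26 tested forkhead, homeobox and T-box genes in the list 11 rose, with a list median of 1.33. The list does not hold every gene of these classes. Outside it, the homeobox gene lhx5 and the T-box gene tbx3a rose by DESeq2, with adjusted p-values of 0.00555 and 0.0276. vent, a repressor of dorsal genes (chromosome 13, 50607664 to 50614639), rose by 8.17 (SE 1.44, adjusted p = 4.33e-07) per the authors' deposited table, and its neighbour vox also rose. The forkhead gene foxi1 rose by 6.55 (SE 1.78, adjusted p = 0.000512) per the authors' deposited table. The others were irx7, foxd5, mxtx2, cdx4, foxb1a, noto, dharma and mixl1. The organizer gene gsc did not pass, at 2.16 with an adjusted p of 0.0589 per the authors' deposited table. tbxta, the T-box gene of the notochord, had a mean count of 13.5 and stood at 0.09 (SE 0.80, adjusted p = 0.832) per the authors' deposited table.

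Pou5f3, SoxB factors and Nanog are maternal activators of the zygotic genome. Of 9 tested SoxB, Pou and Nanog genes 3 rose, namely sox19a, sox3 and pou3f1, which the authors' deposited table gives at 7.07 (SE 2.37, adjusted p = 0.00128), 6.15 (SE 2.08, adjusted p = 0.00159) and 5.60 (SE 2.79, adjusted p = 0.00565). The maternally supplied members pou5f3, at 0.03 (SE 0.31, adjusted p = 0.968), and sox19b, at 0.74 (SE 0.45, adjusted p = 0.146), did not pass per the authors' deposited table, nor did nanog. Among 18 tested Klf and Sp factors 4 rose, with klf2b at 9.09 (SE 2.15, adjusted p = 4.37e-05) per the authors' deposited table. The ubiquitous factors sp1 and sp3a, with mean counts of 56.6 and 87.4, stood at 0.09 and 0.22 per the authors' deposited table and did not pass.

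Signalling genes that rose included ligands, secreted antagonists and receptors. Of 21 tested Nodal pathway genes 5 rose, and the list median was 0.00. The ligand genes ndr1 (chromosome 21, 21010786 to 21013085) and ndr2 stood at 8.58 (SE 1.46, adjusted p = 1.3e-07) and 7.42 (SE 1.74, adjusted p = 0.000122) per the authors' deposited table. The genes of the Nodal inhibitors, lft2 and lft1, stood at 7.76 (SE 1.51, adjusted p = 5.59e-06) and 5.94 (SE 1.36, adjusted p = 0.00013) per the authors' deposited table. The Nodal co-receptor gene tdgf1, at 0.73 with an adjusted p of 0.185, and the transcriptional partner gene foxh1, at 0.38 with an adjusted p of 0.507, did not pass per the authors' deposited table.

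Of 15 tested Bmp pathway genes 3 rose. They were the antagonist gene chrd, at 7.40 (SE 1.69, adjusted p = 9.44e-05), the organizer ligand gene admp, at 7.11 (SE 2.68, adjusted p = 0.00173), and the ligand gene bmp2b, at 5.68 (SE 2.85, adjusted p = 0.00562), per the authors' deposited table. Of 24 tested Wnt pathway genes 4 rose. These were the ligand gene wnt11f2, at 6.13 (SE 1.70, adjusted p = 0.000609), the receptor genes fzd8a, at 6.89 (SE 2.40, adjusted p = 0.0015), and fzd8b, at 4.27 (SE 1.50, adjusted p = 0.00158), and the inhibitor gene dkk1b, at 4.31 (SE 1.76, adjusted p = 0.00301), per the authors' deposited table. The beta-catenin genes ctnnb1 and ctnnb2 stood at 0.36 and -0.07 per the authors' deposited table and did not pass.

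Of 12 tested Fgf pathway genes 2 rose, the receptor gene fgfr4 (adjusted p = 3.76e-06), whose fold has no size, and the Ets factor gene etv5a, at 1.07 (SE 0.53, adjusted p = 0.0383), per the authors' deposited table. The list left out the ligand gene fgf20a, which rose and is described beside the MiR430 comparison. Of 16 tested Notch and hairy-related genes in the list 6 rose, and all 6 encode hairy-related repressors. The list does not hold every such gene. Outside it, lfng, neurl1ab and hes2.2 rose by DESeq2, with adjusted p-values of 0.000246, 3.11e-06 and 0.0358. her3 stood at 8.2 (SE 1.65, adjusted p = 8.13e-06), her11 at 7.22 (SE 2.51, adjusted p = 0.00135) and her5 at 6.13 (SE 1.18, adjusted p = 8.13e-06) per the authors' deposited table. her1, at 5.85 (SE 1.58, adjusted p = 0.000532), hey1, at 5.23 (SE 2.46, adjusted p = 0.00539), and her7 complete the set, per the authors' deposited table. The receptor gene notch1a, with a mean count of 195.3, stood at 0.24 per the authors' deposited table and did not pass. Among all symbol families with at least 6 tested genes, mir-430 copies left out, the her family had the highest share of rises, 5 of 7.

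**Figure D4:**
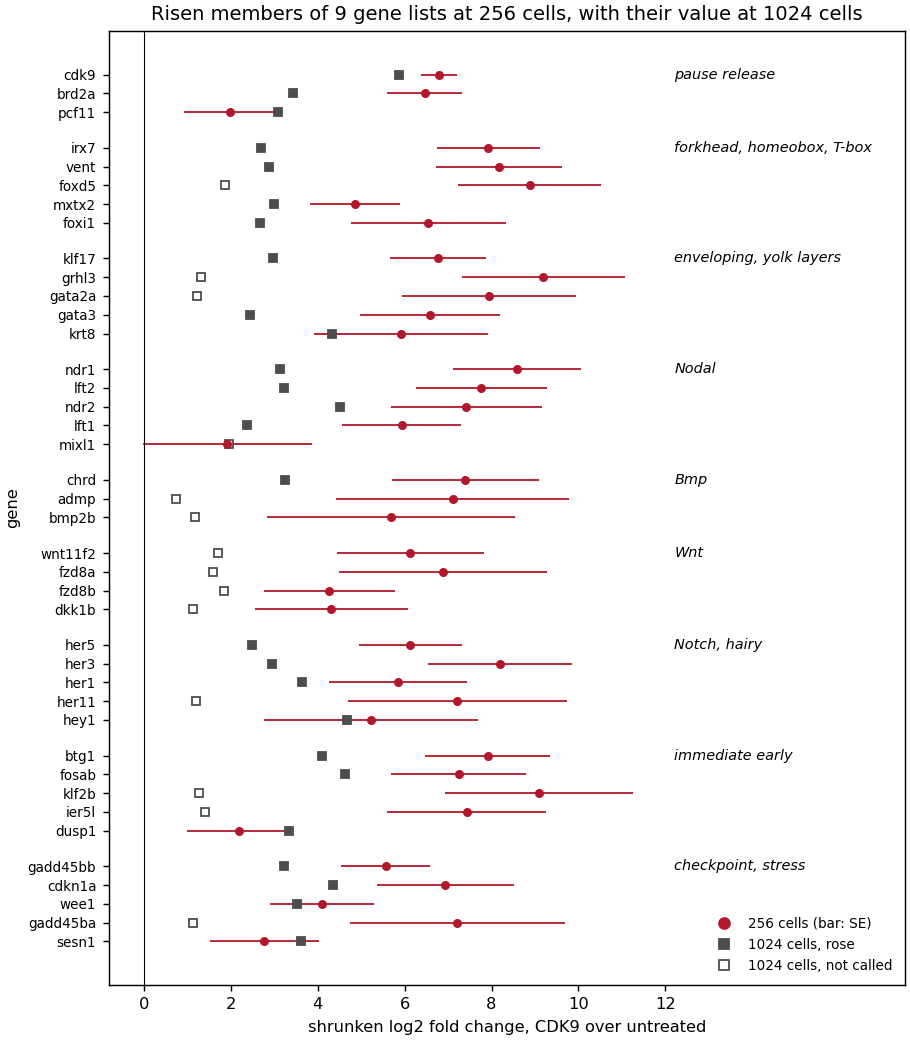
Shrunken log2 fold change of CDK9 over untreated (horizontal axis) for up to 5 risen members of each of 9 gene lists, folds without a size left out, at 256 cells (red points, bars for 1 SE) and at 1024 cells (squares, filled where the gene rose). Values at 256 cells run from 1.92 for mixl1 to 9.19 for grhl3, and none of the 4 Wnt genes is filled.

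Genes that respond early to many stimuli rose in 8 of 21 tested cases, with a list median of 0.88. btg1 stood at 7.91 (SE 1.44, adjusted p = 1.33e-06), ier5l at 7.43 (SE 1.82, adjusted p = 0.00018) and fosab, of the AP-1 family, at 7.25 (SE 1.55, adjusted p = 4.16e-05) per the authors' deposited table. The phosphatase gene dusp1 stood at 2.19 (SE 1.20, adjusted p = 0.00735) per the authors' deposited table. Of 28 tested cell cycle checkpoint and stress response genes 7 rose, of which 4 belong to the gadd45 family of stress-induced genes. gadd45bb stood at 5.57 (SE 1.02, adjusted p = 3.62e-06) and gadd45ba at 7.22 (SE 2.47, adjusted p = 0.00129) per the authors' deposited table. The cell cycle inhibitor gene cdkn1a stood at 6.94 (SE 1.57, adjusted p = 9.69e-05), the mitotic inhibitor kinase gene wee1 at 4.1 (SE 1.20, adjusted p = 0.00051) and sesn1 at 2.77 (SE 1.25, adjusted p = 0.00279) per the authors' deposited table.

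Of 30 tested chemokine, apelin and cell movement genes 5 rose and 1 fell. Beside akap12b, the chemokine receptor gene cxcr4b stood at 6.42 (SE 2.05, adjusted p = 0.00126), prickle1b at 5.82 (SE 2.34, adjusted p = 0.00297), the Snail factor gene snai2 at 3.50 (SE 1.57, adjusted p = 0.0037) and the apelin receptor gene aplnrb at 1.88 (SE 1.53, adjusted p = 0.031) per the authors' deposited table. The integrin gene itgb1a fell by 1.48 (SE 1.18, adjusted p = 0.04) per the authors' deposited table.

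Maternal transcripts are those laid down in the oocyte. None of 27 tested oocyte and germ plasm genes was called by DESeq2, 1 was higher and 1 lower at an unadjusted p under 0.05, and their median was 0.01. The most abundant were cth1, at -0.13 (SE 0.34, adjusted p = 0.818), and the cyclin gene ccna1, at -0.11 (SE 0.27, adjusted p = 0.823), per the authors' deposited table. Of 39 tested genes of maternal RNA clearance and the microRNA machinery 2 rose, a share of 5.13% beside 5.04% of all tested genes. Both, tnrc6b at 1.93 (SE 1.17, adjusted p = 0.0123) and tnrc6c1 at 1.43 (SE 1.06, adjusted p = 0.036) per the authors' deposited table, encode scaffold proteins of the silencing complex. In the list of 29 tested ubiquitination and turnover genes 0 rose and 1 fell, the ubiquitin ligase gene cop1. Of the 29, 2 were higher and 2 lower at an unadjusted p under 0.05. The list does not hold every such gene, and some outside it rose. In the rnf and ube symbol families 2 of 42 tested genes (4.76%) and 1 of 37 (2.7%) rose, beside 5.04% of all tested genes.

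Canonical histone genes are single-exon genes with transcripts that end without polyA. Among single-exon symbols that begin with hist 15 of 44 rose (34.1%), near the 31.7% of the 281 other single-exon genes. Without mir-430 copies and mitochondrial genes, the share of the other single-exon genes was 26.8% of 198. The other genes still include histone-like genes with clone names, such as zgc:112234. Of 24 tested records named hist1h4l 13 rose, at log2 fold changes of 1.30 to 5.27. These 13 are among the 15 hist rises, and the others were hist1h2a6 and hist2h3c. hist1h2a6 (chromosome 7, 6426736 to 6427198) stood at 5.18 (SE 1.32, adjusted p = 0.000298) per the authors' deposited table. Such copies can share reads, and their number is not a number of independent responses.

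Some calls rested on the choice of tested genes and on the centring. Outside the lists, tbx3a and hes2.2 had adjusted p-values of 0.0512 and 0.0666 when all genes with a p were adjusted together. With centred statistics they had 0.0697 and 0.0859. The risen zgc:112234 records named below had 0.0471 and 0.0826 with all genes adjusted together, and 0.0646 and 0.103 with centred statistics. Of the genes named as called, klf13, klf2a, mixl1, dharma, etv5a, aplnrb, tnrc6c1, pfkfb2b, dusp16, junba, mrnip, CR388231.2, tsc22d3, ddx5, raver1, itgb1a and 2 hist1h4l records had adjusted p-values of 0.0565 to 0.0919 when all genes with a p were adjusted together, and all of these but the falls of raver1 and itgb1a had 0.0762 to 0.113 with centred statistics, where 1 more hist1h4l record had 0.0522. pfkfb2b and dusp16, at 3.16 (SE 3.00, adjusted p = 0.0304) and 2.71 (SE 2.87, adjusted p = 0.0411) per the authors' deposited table, were the symbols with the smallest p among genes of a mean under 10.

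Among symbol families with at least 6 tested genes, none held more than 1 of the 34 fallen genes. The medians of the 34 were 9 exons, 21876 bases of span and a mean count of 42.5, beside 10 exons, 18296.5 bases and 27.2 for all tested genes, and 2 of the 34 had a single exon. nat10, an RNA acetyltransferase gene (chromosome 18, 38213778 to 38245062), fell by 2.86 (SE 1.11, adjusted p = 0.00122) per the authors' deposited table. ica1, named for an islet cell autoantigen, fell by 2.39 (SE 1.02, adjusted p = 0.00173) and cttnbp2nla by 2.27 (SE 1.04, adjusted p = 0.00277) per the authors' deposited table. The stress protein gene nupr1a, of 1 exon, fell by 3.10 (SE 1.45, adjusted p = 0.00382) per the authors' deposited table. The adjusted p of nat10 was the smallest of any fall.

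cop1 fell by 1.46 (SE 0.64, adjusted p = 0.00746) and the mitochondrial nuclease gene endog by 2.36 (SE 1.34, adjusted p = 0.008) per the authors' deposited table. The chromatin remodelling gene ino80c fell by 1.49 (SE 0.81, adjusted p = 0.0143) and the histone methyltransferase gene setdb1b by 1.07 (SE 0.40, adjusted p = 0.016) per the authors' deposited table. calm3b, one of the genes for calmodulin, fell by 1.22 (SE 0.55, adjusted p = 0.0181) per the authors' deposited table. brf2, a factor of RNA polymerase III initiation at genes such as rn7sk, fell by 1.76 (SE 1.15, adjusted p = 0.0181), while rn7sk itself rose, as given above from the authors' deposited table. timm50 of the mitochondrial import machinery fell by 2.02 (SE 1.43, adjusted p = 0.0202) and the mitochondrial transport gene rhot1a by 1.18 (SE 0.53, adjusted p = 0.0202) per the authors' deposited table.

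Set beside the 1024-cell stage, where CDK9_1024c was compared with untreated_1024c in other libraries, 207 genes rose at both stages. They are 45% of the 460 rises at 256 cells and 30% of the 690 rises at 1024 cells (5.89% of 11724 tested genes). Of the 54 falls at 1024 cells (0.461%), 4 were also among the 34 falls at 256 cells, namely ica1, eif4h, metrnla and raver1. No gene rose at one stage and fell at the other, and of the 460 rises 425 had a positive log2 fold change at 1024 cells. The 207 shared rises had a median log2 fold change of 4.28 at 256 cells and 3.11 at 1024 cells, and 129 of them were larger at 256 cells. The 253 other rises had medians of 2.84 and 0.89.

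Genes that rose at both stages were shorter than the rest of the 256-cell rises, with medians of 3 exons and 3.83 kb against 6 exons and 11.4 kb. Their mean counts were also higher, with medians of 91.98 and 57.8. Of the 104 single-exon rises 70 rose at 1024 cells, and of the 44 rises with more than 20 exons 3 did. For the same 680 genes of 100 kb or more, 22 rose at 256 cells and 6 at 1024 cells (0.882%), with 3 in common. nbeaa stood at 0.18 (SE 0.51, adjusted p = 0.759) and ccser1 at -0.02 (SE 0.27, adjusted p = 0.973) at 1024 cells per the authors' deposited table. In genes under 1 kb the order was the other way round, with 34.4% rising at 256 cells and 51.4% at 1024 cells. The 46 mir-430 copies in this class did not follow it, with 78.3% and 50%. Nuclear genes under 1 kb without these copies gave 29% and 60.8%, and without hist genes as well 27.1% and 56.4%. These shares still hold genes with clone or accession names, among them histone-like genes. Of the 11 with gene symbols 2 rose at each stage (18.2%). Of 66 single-exon genes of that kind, of any span, 17 rose at each stage (25.8%). Among all tested genes the share was also higher at 1024 cells in each other span class up to 50 kb. Over the same 9124 genes it was 5.04% at 256 cells and 7.21% at 1024 cells. A share counts calls at each stage and is no test of a difference between the stages.

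**Figure D5:**
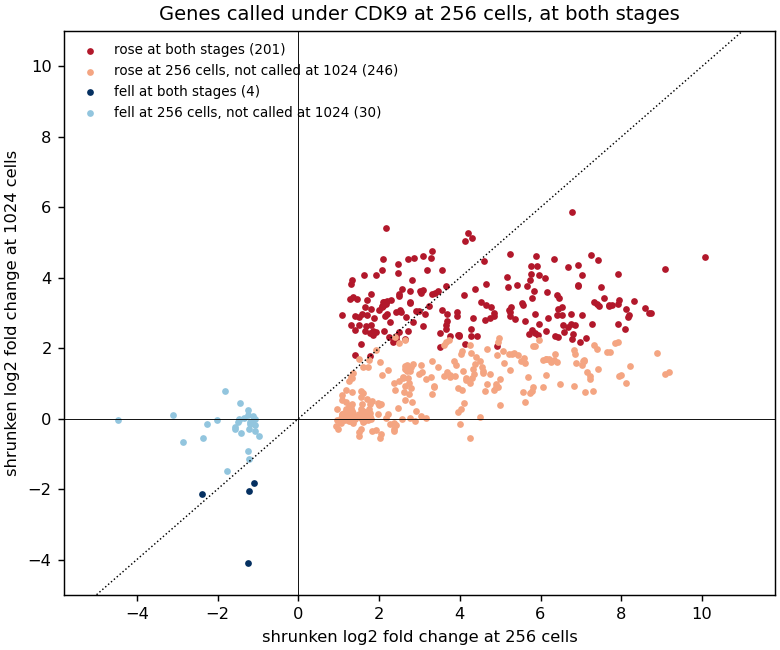
Shrunken log2 fold change under CDK9 at 256 cells (horizontal axis) and at 1024 cells (vertical axis) for the genes called at 256 cells whose fold has a size, with equal values on the dotted line. Genes that rose at both stages are dark red, and all 207 of them, including the 6 without a size that are not drawn, have medians of 4.28 at 256 cells and 3.11 at 1024 cells; the 4 shared falls are dark blue.

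Lists differed in how many of their rises were shared between the stages. Of the 7 risen enveloping and yolk syncytial layer genes 4 also rose at 1024 cells, of the 11 forkhead, homeobox and T-box genes 5, of the 5 Nodal genes 4 and of the 6 hairy-related genes 4. None of the 3 SoxB and Pou genes and none of the 4 Wnt genes did, by DESeq2 at an adjusted p under 0.05. These differences between lists were not tested. The values at 1024 cells were positive in these 7 genes too, from 1.14 for dkk1b to 1.85 for fzd8b per the authors' deposited table. nanog, not called at 256 cells, rose at 1024 cells, at 1.99 (SE 0.60, adjusted p = 0.00435) per the authors' deposited table.

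The difference of the 2 log2 fold changes over their combined SE, adjusted over 16996 genes, passed in 15 genes (0.0883%). For 9 of them the fitted value was higher at 256 cells, but all 9 are folds without a size, so for these the test shows no difference of known size. The other 6 were higher at 1024 cells and were not called at 256 cells. With signed z statistics in place of fold changes, 5 of the 6 did not pass (adjusted p = 0.0669 to 0.134), and si:rp71-46j2.7 did (adjusted p = 0.0262). hist1h2ba (chromosome 25, 35048945 to 35049318) stood at 0.86 (SE 0.75) at 256 cells and 6.25 (SE 0.90) at 1024 cells per the authors' deposited table (adjusted p of the difference 0.00601). nsun5, an RNA methyltransferase gene, stood at 0.02 (SE 0.49) and 4.70 (SE 0.95), and the splicing-associated gene acin1a at -0.09 (SE 0.33) and 2.24 (SE 0.44), per the authors' deposited table. acin1b, its paralog, rose at both stages. Shrinkage pulls uncertain values toward 0 at each stage by its own amount, so this test is approximate.

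MiR430_256c embryos, which received s4UTP with MiR430 microRNA, were compared with the same 3 untreated libraries. Only 7 of 12373 tested genes were called there (0.0566%), 4 upward and 3 downward. In all, 5 of the 460 rises under CDK9 and 1 of the 34 falls are among these 7, and since the controls are shared the values are given side by side without a test. akap12b, znf1092 and CU182823.1 were called upward under MiR430 too, with adjusted p-values of 3.1e-08, 3.1e-08 and 4.57e-09 per the authors' deposited table, and their folds have no size in either comparison. Under MiR430 the Fgf ligand gene fgf20a stood at 3.22 (SE 2.66, adjusted p = 0.0093), and under CDK9 at 5.86 (SE 1.11, adjusted p = 6.17e-06), per the authors' deposited table. tsc22d3, a gene induced by glucocorticoids in mammals, was called downward under MiR430 (adjusted p = 1.59e-09) and upward under CDK9 at 2.42 (SE 2.46, adjusted p = 0.043) per the authors' deposited table. brf2 was called downward in both, at -1.85 (SE 2.19, adjusted p = 0.015) under MiR430 per the authors' deposited table.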

How the data were processed

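Enriched SLAM-seq libraries of whole zebrafish embryos were compared between CDK9_256c and untreated_256c, 3 biological replicates each. The submitters' processing notes list DESeq2, featureCounts, HISAT, Picard, SAMtools and Trimmomatic, without versions, and the genome build GRCz11. The 18 count columns of the authors' table match no sample label and were not used in any step. Gene symbols, coordinates, strand and exon blocks came from that table. Mean normalized counts, a signal averaged over libraries and the same in each comparison, were taken as the authors deposited them. The log2 fold changes and their SE are deposited shrunken estimates. The p-values and adjusted p-values are deposited too, and a Benjamini-Hochberg adjustment recomputed over the 9124 tested genes gave the same adjusted p. Whether all reads or only converted reads entered the counts: not given in the sources used here.

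A gene was called at a deposited adjusted p under 0.05. Classes by exons, span, mean and chromosome, the nearest neighbours, the stage difference and the alternatives were computed with Python 3.11.15, numpy 2.4.6, pandas 2.3.3 and scipy 1.17.1. The stage difference was a two-sided normal test with Benjamini-Hochberg adjustment. That test was run on simulated data with normal errors of the deposited SE and no shrinkage, so the run does not cover the shrinkage. A fold was taken to have no size where, with every read placed in the higher group, fewer than 1 read would be left for the 3 libraries of the lower one. Of 510 genes without a symbol in the count table, 504 were named from a reference table of gene names. Genes named in the text are cdk9, the 12 risen and 12 fallen symbols with the smallest adjusted p, 1 mir-430 copy per mature type, up to 5 called members per list (the 2 most abundant where none passed), up to 3 symbols per class and 5 genes per direction of the stage difference. Other genes were named after their values were seen. The members and the 17 lists were chosen with earlier results of these data known. Count models on libraries and promoter sequences were not used here. Results for some genes are not reported here.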

Additional observations from a re-analysis of the deposited data

Results flagged for a closer look

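The change under CDK9 differed between the 256-cell and the 1024-cell stage in 15 genes, by a normal test comparing both deposited fold changes on the log2 scale, with Benjamini-Hochberg adjustment over 16996 genes. The 9 genes that were higher at 256 cells are folds without a size at that stage. Their p-values rest on those fitted folds and are listed only as the values that drew attention, not as stage differences. The adjusted p was 1.33e-10 for akap12b, for PCMTD2 and for BX927212.1. It was 1.45e-09 for CU182823.1, 2.2e-08 for znf1092 and 1.29e-05 for sb:cb81. For dhrs13b.1 it was 0.000497, for hs3st3b1b 0.00153 and for BX842669.1 0.00176. The mean normalized count of BX842669.1 was 8.62, near the lower end of the tested genes.

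The 6 genes higher at 1024 cells were called at that stage and not at 256 cells. hist1h2ba differed by -5.38 on the log2 scale (256 minus 1024 cells, adjusted p = 0.00601) and a hist1h4l copy on chromosome 25 by -4.69 (adjusted p = 0.00601). nsun5 differed by -4.68 (adjusted p = 0.0165) and a zgc:112234 record (chromosome 7, 5960491 to 5961503) by -4.59 (adjusted p = 0.0194). Other records named zgc:112234 rose at 256 cells by DESeq2, with adjusted p-values of 0.0253 and 0.0445. With centred statistics these were 0.0646 and 0.103. acin1a differed by -2.33 (adjusted p = 0.0245) and si:rp71-46j2.7 by -2.52 (adjusted p = 0.0257). With signed z statistics only si:rp71-46j2.7 of these 6 passed (adjusted p = 0.0262), and the other 5 had 0.0669 to 0.134. Of the 9 above, 5 passed, and sb:cb81, dhrs13b.1, hs3st3b1b and BX842669.1 had 0.0534 to 0.886.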

How the results depend on the processing

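The call of rises over falls kept its direction under every alternative that was run. With an adjusted p under 0.01, 244 genes rose and 8 fell, 81 rose at both stages, and the risen shares were 21.2% of single-exon genes, 11.3% under 5 kb, 8.16% at a mean of at least 50 and 13.5% on chromosome 4. With the authors' own call (that threshold and a log2 change of more than 2 either way) these values were 226, 6, 77, 21.2%, 11.3%, 7.53% and 13.3%. With all 16996 genes adjusted together 355 rose, 22 fell and 157 rose at both stages. The shares, over more genes, were 11.9%, 5.76%, 10.2% and 7.55%. With a mean of at least 50, 364 rose and 23 fell, with shares of 50.3%, 43.7%, 15.2% and 54.3%. A gene can reach this mean through its rise in the CDK9 libraries, so these shares are no independent result. With centred statistics 302 rose, 65 fell and 132 rose at both stages, with shares of 24.9%, 13%, 9.46% and 15.9%. Without mir-430 copies and the long arm of chromosome 4, 333 rose and 29 fell, and the shares were 19.6%, 11.8%, 9.11% and 3.85%. Genes of 1 or 2 exons rose in 20.3%, genes under 2 kb in 27.7% and under 10 kb in 10.4%. The signed z statistics differed between stages in 7 genes, 6 of them among the 15 and 5 of them higher at 256 cells. With a mean of at least 50, 17 differed, 10 of them among the 15, and only 6 of the 17 were higher at 256 cells. Listed genes that rose stayed within 1.5 times of 66 under every alternative run, but single lists moved. With the stricter threshold, the authors' own call, all genes adjusted together and centred statistics, risen Klf and Sp genes went from 4 to 2 and Fgf genes from 2 to 1. Risen clearance genes went from 2 to 0 or 1 under these and to 0 at a mean of at least 50, where 1 ubiquitination gene rose. No paired analysis was possible because the count columns carry no sample names that match the labels, so edgeR and DESeq2 refits, leaving out each replicate and the replicate block were not run, and promoter motif counts were not run either. The depth of each library is unknown here.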
